A study of Homo sapiens with 6 samples.

Results

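LSD1, the product of KDM1A, is a histone demethylase that works inside a multi-subunit repressor built on the CoREST scaffold. The 9 genes described here are KDM1A, its paralog KDM1B, the CoREST scaffold genes RCOR1, RCOR2 and RCOR3, the deacetylase genes HDAC1 and HDAC2, and the subunit genes PHF21A and HMG20B. They were taken by name, as every probe set of the array that the platform annotation assigns to exactly 1 of these symbols. That gave 19 probe sets of 54675 on the array, of which 41091 have a single gene symbol. A probe set is a group of short probes that together give 1 signal.

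RNA came from MDA-MB-231, an established line of human breast cancer cells that the labels call ER-negative, meaning that it lacks the estrogen receptor. All cells had 2 rounds of siRNA transfection and were collected at 6 days, and 2.5 ug of total RNA went into each labelling. The control group had 3 arrays of cells given control siRNA, and the LSD1 group had 3 arrays of cells given LSD1 siRNA, described as biological replicates. The sequence of either siRNA and the number of siRNAs used are not given in the sources used here, and the line is 1 cell population, so the groups stand for this line only. The question is what the loss of the LSD1 transcript leaves of the transcripts of its own complex.

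In the complex, LSD1 uses the cofactor FAD to oxidise mono- and dimethylated lysine 4 of histone H3, and HDAC1 or HDAC2 removes acetyl groups from neighbouring histone tails. CoREST holds the enzymes together and lets LSD1 act on nucleosomes, PHF21A (BHC80) reads the unmethylated H3 tail, and HMG20B (BRAF35) binds DNA. DNA-binding repressors such as REST and the Snail factors bring the complex to promoters. LSD2, the product of KDM1B, has the same catalytic fold but is not a CoREST subunit and works with another cofactor, GLYR1.

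The arrays were already scaled by the authors, to a trimmed mean signal of 500.1 on each of the 6. A probe set needed a mean signal above 30.5 to be tested. The number of arrays, 3 a group, limits the precision, and over all genes the standard error (SE) of a log2 change had a median of 0.11. The ratio of 3' to 5' signal of the ACTB control probe sets, a measure of RNA integrity, was 1.74 on control array 1 and between 1.33 and 1.43 on the other 5 arrays. Mesenchymal markers of the line were bright, with VIM at a mean signal of 32798 and CD44 at 13093 in controls, and ESR1 was at 59.1. EGFR, another high marker, was at 4732 and fell by 0.25 on the log2 scale (limma adjusted p = 0.0194). Among the genes listed as low in this line, EPCAM was at 1658, ERBB2 at 581, CDH1 at 163 and PGR at 60.7 in controls. Of 10 markers of leukocytes, fibroblasts and endothelium, 9 were read, 0 array values were exactly 0, and 3 (PTPRC, VWF and CDH5) were below the filter. The other 6 were above it. The 9 markers summed to between 791 and 883 in controls and between 775 and 997 with LSD1 siRNA. COL1A1, a fibroblast gene, was the brightest of the 9, at 491 in controls and 450 with LSD1 siRNA, and dominated this sum. PECAM1, an endothelial and leukocyte adhesion gene among them, rose from 102 to 208, a log2 change of 0.94 (limma adjusted p = 0.00112). Its part in the results below was not tested.

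KDM1A transcript was strongly reduced on every LSD1 siRNA array. By their brightest probe sets, HDAC1 and HDAC2 fell by 18.9% and 17.2%, while RCOR1 and RCOR3 showed no called change. A dimmer RCOR3 set fell by 0.63 on the log2 scale, and HDAC2 was not called with the mean of its sets. Each gene was represented by its brightest probe set and tested with limma on log2(signal + 15), with Benjamini-Hochberg adjustment over 13847 genes at 0.05. All 9 genes passed the filter on low signal. Of these, 3 fell (KDM1A, HDAC1 and HDAC2), 1 rose (KDM1B) and 5 did not pass. In the whole gene test 41.1% of genes were called, 19.8% higher and 21.3% lower. A count of 4 in 9 thus lies near the background and says nothing particular about these genes. The 4 include KDM1A, the siRNA target, whose fall is what the siRNA is meant to cause. Control and LSD1 siRNA arrays were fully separate for 5 genes, 2 higher and 3 lower, with KDM1A among the lower. This stands beside 50.4% of all genes tested, 24.3% higher and 26.2% lower. The median log2 change was -0.02 over the 9 genes and -0.02 over all genes.

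**Figure D1:**
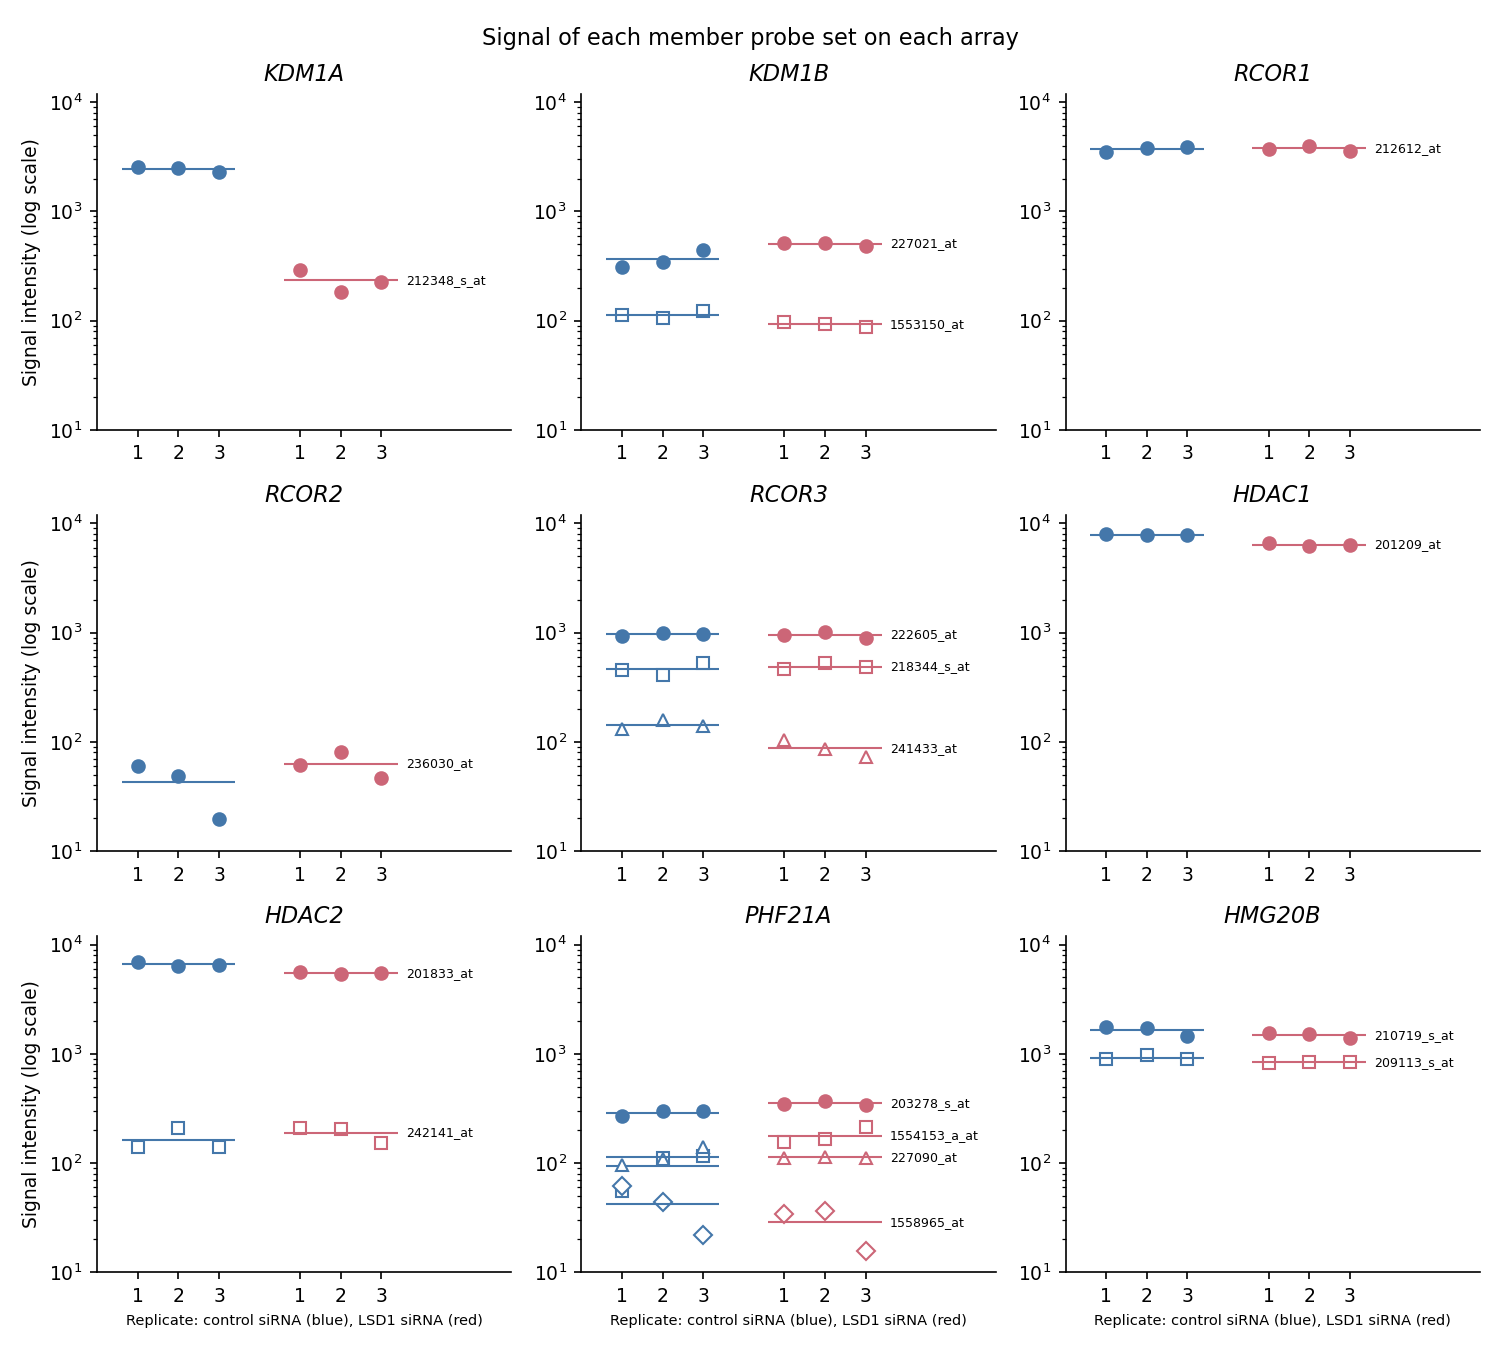
Signal intensity (log scale) of each tested probe set of the 9 genes on each array, with control siRNA in blue and LSD1 siRNA in red. Filled points are the brightest probe set of a gene, open points its other probe sets, and lines are group means. KDM1A drops from a mean of 2443 to 234, while RCOR1 stays near 3720 and 3773.

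KDM1A encodes LSD1, the target of the siRNA, and has a single probe set (212348_s_at), whose suffix marks probes shared by several transcripts. RefSeq lists 5 curated KDM1A mRNAs, which this signal does not separate. The signal was 2540, 2493 and 2295 on control arrays 1, 2 and 3, and 291, 184 and 228 on LSD1 siRNA arrays 1, 2 and 3. The groups lay far apart, with the highest LSD1 siRNA array at 291 and the lowest control array at 2295. The LSD1 siRNA mean of 234 ± 53.6 (SD, n = 3) was 9.58% of the control mean of 2443 ± 130 (SD, n = 3). On the log2 scale KDM1A changed by -3.32 (SE 0.13, limma adjusted p = 1.49e-08). Of 13847 genes tested, 0 had a lower change, and 0.0939% had a change larger in size. In bulk RNA, fewer cells with the transcript and less transcript per cell cannot be told apart.

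KDM1B, the paralog that encodes LSD2, gave opposite signs with its 2 probe sets. The brighter set (227021_at) read 310, 347 and 442 on the control arrays and 514, 518 and 486 on the LSD1 siRNA arrays. The groups did not overlap, and control array 3 lay closest to the LSD1 siRNA arrays. The rise was 38.2%, with a log2 change of 0.47 (SE 0.13, limma adjusted p = 0.0110). Without control array 1, the array with the high ACTB ratio, the change was 0.36, with an adjusted p of 0.0445 over genes and 0.0501 over probe sets. The dimmer set (1553150_at) read 112, 107 and 122 on control arrays and 97.0, 93.8 and 86.8 on LSD1 siRNA arrays. It too separated the groups, but downwards, with a log2 change of -0.26 and a 95% interval from -0.66 to 0.14 (limma adjusted p = 0.321). The log2 ratio of the brighter to the dimmer set went up by 0.72 with a standard error of 0.11. RefSeq lists 16 curated KDM1B mRNAs. With the mean of both sets KDM1B was at 0.10 (limma adjusted p = 0.531), and without moderation of the variances the brighter set had an adjusted p of 0.0898 (range over the alternatives 0.00124 to 0.531), so the call of a KDM1B rise rests on the choice of probe set and variance model.

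The ratio of KDM1A to KDM1B was also taken on each array. KDM1A is the target of the siRNA, so a fall of this ratio follows from the design. It therefore cannot show whether the 2 paralogs differ in their response. Their log2 ratio changed by -3.79 with a standard error of 0.26, and the ratios of the groups did not overlap. An exact two-sided permutation test over the 6 arrays gave p = 0.1, the lowest value possible with 3 arrays a group, and 0.5 after adjustment over the 5 ratios tested. No ratio can therefore pass 0.05 in this test.

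RCOR1, which encodes CoREST itself, showed no detectable shift. Its signal was 3531, 3769 and 3861 on control arrays and 3747, 3973 and 3598 on LSD1 siRNA arrays, and the ranges of the groups overlapped. The log2 change was 0.02 with a 95% interval from -0.12 to 0.16 (limma adjusted p = 0.835). A second probe set (237041_x_at) was below the filter, at 33.8 on LSD1 siRNA array 1 and between 5.06 and 7.68 on the other arrays.

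RCOR3, a CoREST paralog, was measured by 3 probe sets that did not move alike. The brightest (222605_at) read 941, 985 and 962 on control arrays and 949, 1023 and 889 on LSD1 siRNA arrays. All 3 control values lay within the range of the LSD1 siRNA arrays, and the log2 change was -0.02 with a 95% interval from -0.19 to 0.15 (limma adjusted p = 0.896). The next set (218344_s_at) was at 461 ± 58.4 in controls and 490 ± 30.2 with LSD1 siRNA (SD, n = 3), a log2 difference of 0.09 that did not pass. The dimmest (241433_at) read 132, 158 and 139 in controls and 104, 85.8 and 72.3 with LSD1 siRNA. All 3 of its LSD1 siRNA values lay below its control values. It fell by 0.63 on the log2 scale (SE 0.19, limma adjusted p = 0.0228 over all probe sets). That call was lost under 5 of 15 alternatives, among them leaving out control array 2, LSD1 siRNA array 2 or LSD1 siRNA array 3 (adjusted p of 0.0840, 0.0564 and 0.0836, range 0.0153 to 0.0840). RefSeq lists 6 curated RCOR3 mRNAs.

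RCOR2, the third CoREST paralog, best known from stem cells and neurons, was dim. Its only probe set (236030_at) read 60.1, 48.4 and 19.7 on control arrays and 60.9, 80.9 and 46.4 on LSD1 siRNA arrays. Control array 3 stood apart at the low end, and the groups overlapped. The log2 value of 0.48 had a 95% interval from -0.28 to 1.24 (limma adjusted p = 0.305), and it was 0.15 without control array 3. With so wide an interval neither a change of RCOR2 nor its absence can be stated.

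The 3 scaffold genes were compared through their ratios. RCOR1 to RCOR3 changed by 0.04 on the log2 scale with a standard error of 0.03 (exact permutation p = 0.4, n = 3 a group). Ratios with RCOR2 were wider, at -0.46 with a standard error of 0.40 for RCOR1 to RCOR2 and 0.49 with a standard error of 0.36 for RCOR2 to RCOR3. Their exact permutation p-values were 0.4 and 0.2, and each was 0.5 after adjustment over the 5 ratios. The ratios of the groups overlapped in all 3 of these pairs.

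**Figure D2:**
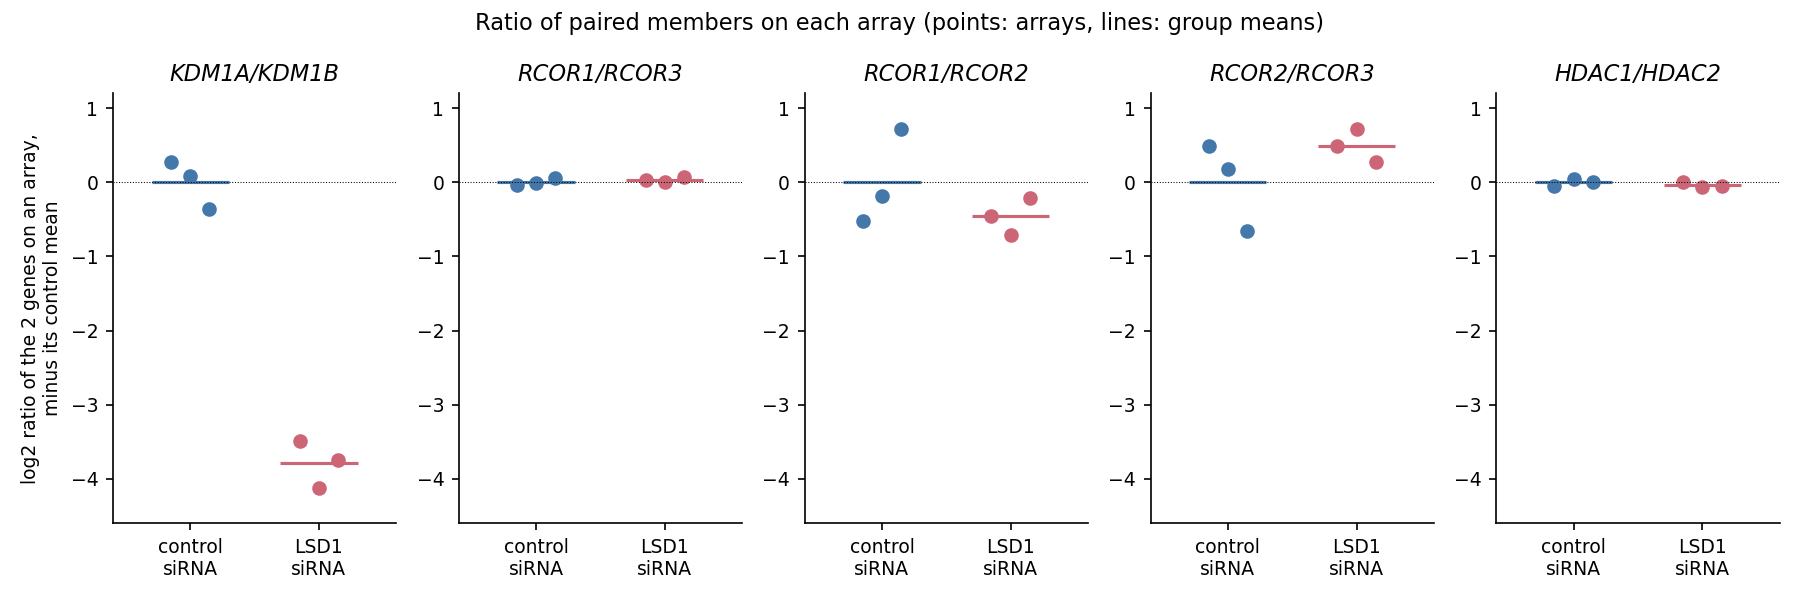
Change of the log2 ratio of paired genes on each array, set to 0 at the control mean (points are arrays, lines group means, blue control siRNA, red LSD1 siRNA). The KDM1A to KDM1B ratio, which holds the siRNA target, moves by -3.79. Those of RCOR1 to RCOR3 and HDAC1 to HDAC2 move by 0.04 and -0.03.

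HDAC1 and HDAC2, the deacetylase genes of the complex, were both lower with LSD1 siRNA. HDAC1 (201209_at, its only probe set) read 7989, 7821 and 7821 on control arrays and 6681, 6180 and 6297 on LSD1 siRNA arrays. The groups were well apart, with control values nearly level. The fall was 18.9%, a log2 change of -0.30 (SE 0.06, limma adjusted p = 0.00116). It kept its sign and its call under the 15 alternatives that could move it, with log2 changes from -0.34 to -0.28; averaging probe sets could not, as it has 1. In size, 47.4% of all genes tested changed more than HDAC1.

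HDAC2 has a bright probe set (201833_at) that read 6947, 6325 and 6535 on control arrays and 5570, 5386 and 5440 on LSD1 siRNA arrays. No LSD1 siRNA array reached the lowest control array. The fall was 17.2%, a log2 change of -0.27 (SE 0.06, limma adjusted p = 0.00290). A much dimmer set (242141_at) read 141, 209 and 140 in controls and 211, 203 and 153 with LSD1 siRNA, which overlapped, with a log2 value of 0.21 and a 95% interval from -0.21 to 0.62. With the mean of both sets HDAC2 was at -0.03 (limma adjusted p = 0.814, range over the alternatives 0.00124 to 0.814). The log2 ratio of HDAC1 to HDAC2 changed by -0.03 with a standard error of 0.04 (exact permutation p = 0.5, n = 3 a group). Its range was 0.20 to 0.31 in controls and 0.20 to 0.26 with LSD1 siRNA.

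The promoters of HDAC1 and HDAC2 are shown because both genes were called lower with their brightest probe sets. That of RCOR1 is shown because it serves as a member with no called change. Each window runs from 250 bases before the start of the gene to 50 after it, 5′ to 3′ on the gene's strand, from RefSeq on GRCh38.p14. It is chr1:32291833-32292132 on the plus strand for HDAC1, chr6:113971099-113971398 on the minus strand for HDAC2 and chr14:102592399-102592698 on the plus strand for RCOR1. Capitals mark matches on either strand to GGGCGG (the GC box bound by SP1) or CCAAT (the box bound by NF-Y).
HDAC1: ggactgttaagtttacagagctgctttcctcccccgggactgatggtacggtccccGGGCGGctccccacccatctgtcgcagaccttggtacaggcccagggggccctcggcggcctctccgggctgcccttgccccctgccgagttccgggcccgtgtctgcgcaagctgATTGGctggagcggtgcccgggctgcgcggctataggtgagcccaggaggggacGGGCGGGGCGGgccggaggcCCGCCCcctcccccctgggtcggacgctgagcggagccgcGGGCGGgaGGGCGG
HDAC2: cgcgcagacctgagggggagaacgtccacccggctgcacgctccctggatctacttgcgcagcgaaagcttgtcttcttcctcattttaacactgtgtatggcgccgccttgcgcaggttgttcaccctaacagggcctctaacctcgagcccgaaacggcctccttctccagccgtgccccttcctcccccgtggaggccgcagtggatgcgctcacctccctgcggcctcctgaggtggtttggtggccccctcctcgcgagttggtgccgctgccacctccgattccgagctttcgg
RCOR1: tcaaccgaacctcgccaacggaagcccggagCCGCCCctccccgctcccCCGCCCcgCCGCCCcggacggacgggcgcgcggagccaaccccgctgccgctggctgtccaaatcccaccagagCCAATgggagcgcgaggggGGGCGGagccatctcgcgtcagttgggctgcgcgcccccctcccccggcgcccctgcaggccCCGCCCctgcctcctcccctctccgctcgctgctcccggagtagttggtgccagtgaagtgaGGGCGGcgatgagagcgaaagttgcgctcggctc

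HDAC1 and RCOR1 each hold 6 matches to GGGCGG, with overlapping matches counted, and 1 to CCAAT, while the HDAC2 window holds 0 of either. Among 35116 windows of the same length, 44.95% hold GGGCGG and 34.6% hold CCAAT, and of the 11 windows of the members 9 hold the first and 4 the second. The other letters searched were CAGGTG (bound by Snail and ZEB factors), TTTGGCGC and TTTCGCGC (bound by E2F factors) and TATAAA, found in 20.6%, 0.652%, 0.515% and 11.5% of all windows. These occur in 0 of the 11 windows, which cover 8 of the 9 genes. RCOR2 has no window in the table. A match is a run of letters, not a measured binding site.

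PHF21A, the H3 tail reader BHC80, had 4 probe sets, of which 1 rose and 3 missed the threshold. The brightest (203278_s_at) read 269, 299 and 299 on control arrays and 350, 371 and 342 on LSD1 siRNA arrays. The groups did not overlap, but the log2 value of 0.28 (standard error 0.11) missed the threshold (limma adjusted p = 0.0589). It passed with no intensity trend (0.0316) and without moderation (0.0333), within a range over the alternatives of 0.0316 to 0.289. The set 1554153_a_at read 55.0, 111 and 117 in controls and 155, 168 and 214 with LSD1 siRNA. Here control array 1 lay lowest, and it was the array with the high ACTB ratio. This set rose by 0.87 on the log2 scale (SE 0.25, limma adjusted p = 0.0162), and by 0.58 without control array 1. It lost its call under 3 of 15 alternatives, among them leaving out LSD1 siRNA array 3 (0.74, adjusted p = 0.0739, range 0.00654 to 0.140). The 2 other sets did not pass, with 227090_at at -0.01 and the dim 1558965_at at -0.37. RefSeq lists 16 curated PHF21A mRNAs.

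HMG20B, the DNA-binding subunit BRAF35, had 2 bright probe sets with lower means that did not pass. The brightest (210719_s_at) read 1748, 1737 and 1469 on control arrays and 1546, 1514 and 1390 on LSD1 siRNA arrays, where control array 3 fell inside the range of the LSD1 siRNA arrays. Its log2 value was -0.15 with a 95% interval from -0.33 to 0.03 (limma adjusted p = 0.172). Without control array 3 it was -0.23 and passed (adjusted p = 0.0244, range over the alternatives 0.0244 to 0.728). The set 209113_s_at read 891, 978 and 905 in controls and 822, 848 and 850 with LSD1 siRNA. Its groups did not overlap, and the log2 value of -0.14 had a 95% interval from -0.31 to 0.03 (limma adjusted p = 0.210). The third set (213966_at) was below the filter, between 3.61 and 37.7.

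**Figure D3:**
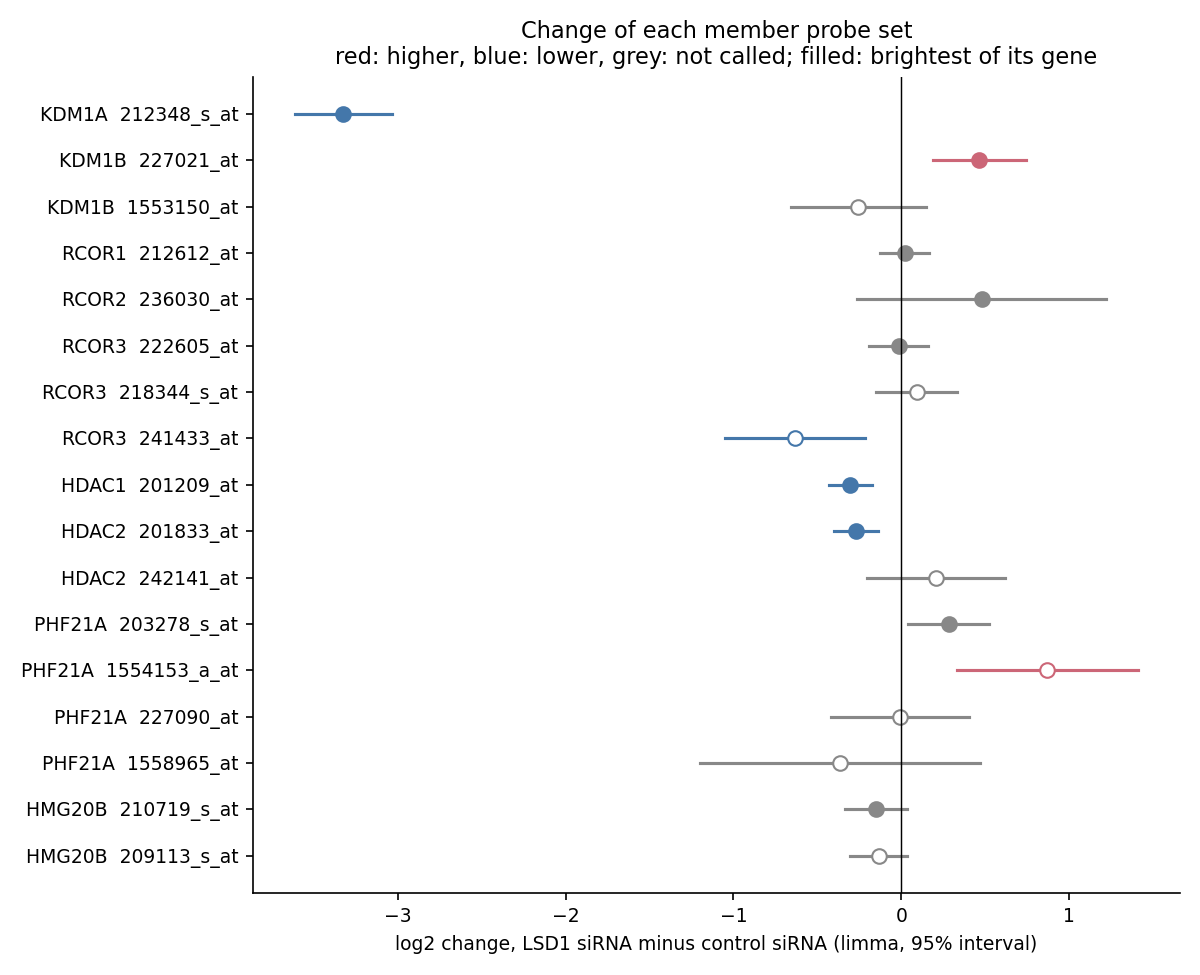
The log2 change (LSD1 siRNA minus control siRNA) of each of the 17 tested probe sets of the members, with limma 95% intervals. Red sets rose, blue sets fell, grey sets did not pass, and filled points are the brightest set of a gene. KDM1A lies at -3.32, and all other sets lie between -0.63 and 0.87.

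Probe set by probe set, 17 of the 19 passed the filter and 2 did not. Among the 17, 2 rose and 4 fell with limma adjusted over 27107 probe sets, beside 34.5% of all probe sets called, 17.1% higher and 17.4% lower. Arrays of the groups were fully separate for 9 of the 17, 3 higher and 6 lower, beside 46.0% of all, 22.5% higher and 23.5% lower. The set of KDM1A, the siRNA target, counts among the 4 that fell and the 6 lower. Of 8 comparisons of a gene's brightest set with another of its tested sets, made after the values were seen, the log2 ratios of the groups did not overlap in 4. These were KDM1B (1553150_at), RCOR3 (241433_at) and PHF21A (1554153_a_at and 227090_at), each with an exact permutation p of 0.1, the lowest possible, and 0.2 after adjustment over the 8. The share of such pairs among other genes was not computed, so the count of 4 is a description of these genes only. The RCOR3 ratio went up by 0.62 with a standard error of 0.13, and the PHF21A ratio to 1554153_a_at changed by -0.59 with a standard error of 0.29.

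Other genes that act with LSD1 were taken from 9 lists of 44 genes. Of 37 tested, 7 rose and 11 fell, which is 48.6% beside 41.1% of all genes tested, with a median log2 change of -0.12 beside -0.02. Another 5 were below the filter.

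Of 12 further CoREST and CtBP subunit genes tested, 2 rose and 5 fell, beside 19.8% of all genes higher and 21.3% lower. Their median log2 change was -0.11. EHMT2, which encodes the H3K9 methyltransferase G9a, fell by 0.83 on the log2 scale, with a signal of 644 ± 50.1 in controls and 356 ± 45.3 with LSD1 siRNA (SD, n = 3; limma adjusted p = 1.08e-04). WIZ, a zinc finger partner of G9a, fell by 0.50 (644 ± 67.7 against 449 ± 11.8). Against these, ZNF217, a zinc finger subunit, rose by 0.50 (2089 ± 30.7 against 2964 ± 28.8). ZMYM2, another zinc finger subunit, rose by 0.38, although the mean of its probe sets was 0.06 (limma adjusted p = 0.811, range 0.00261 to 0.811). That mean takes in sets below the filter. With the set used for each gene, CDYL, CTBP1 and ZMYM3 also fell, by 0.31, 0.27 and 0.50. With the mean of their probe sets these 3 missed the threshold (limma adjusted p = 0.230, 0.238 and 0.343, range over the alternatives 9.86e-04 to 0.343). The CDYL sets 203100_s_at and 203099_s_at, both above the filter, were at -0.01 and -0.03 and did not pass. The ZMYM3 sets 1554171_at and 1554172_a_at had opposite signs, at -0.30 and 0.31, and did not pass either. For CTBP1, the bright sets 213980_s_at and 212863_x_at also fell, by 0.35 and 0.53 (limma adjusted p = 0.00439 and 0.00198 over all probe sets). Its mean also takes in the dim set 1557714_at, at a signal of 41.1 in controls and a log2 value of 0.02.

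Of the DNA-binding repressors that bring LSD1 to chromatin, 7 of 11 were tested and 2 rose, beside 19.8% of all genes. SNAI2, which encodes Slug, rose by 0.92 on the log2 scale, with signals of 1120 ± 84.5 in controls and 2133 ± 106 with LSD1 siRNA (SD, n = 3; limma adjusted p = 2.42e-06). ZEB2, a zinc finger repressor of epithelial genes, rose by 0.85 (206 ± 16.3 against 384 ± 16.5). A second ZEB2 set (228333_at) was at -0.14. The mean of all ZEB2 sets, also those below the filter, was 0.05 (limma adjusted p = 0.882, range 9.88e-05 to 0.882). REST, the neuronal gene silencer that recruits CoREST, stood at 0.17 and missed the threshold (limma adjusted p = 0.105). Its arrays were separate all the same, at 972, 903 and 1032 in controls and 1053, 1152 and 1070 with LSD1 siRNA. GFI1, GFI1B, INSM1 and TAL1 were below the filter.

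Of the other class I deacetylase genes, HDAC3 and HDAC8, and the NuRD histone-binding genes RBBP4 and RBBP7, 3 of 4 fell. This stands beside 21.3% of all genes, and their median was -0.37. RBBP7 fell by 0.46 on the log2 scale, at 14736 ± 236 in controls and 10708 ± 368 with LSD1 siRNA (SD, n = 3). RBBP4 fell by 0.50 on the log2 scale, and HDAC3, which belongs to the NCoR and SMRT complexes, fell by 0.27. HDAC8 stood at -0.12 and missed the threshold. The changes of HDAC1, HDAC2 and HDAC3 thus lay at -0.30, -0.27 and -0.27. How they differ was tested for HDAC1 and HDAC2 alone, by the ratio given above.

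GLYR1, the cofactor of LSD2, stood at -0.06 with the set used for the gene (limma adjusted p = 0.7495). Its sets 218506_x_at, 222115_x_at and 221628_s_at stood at -0.22, -0.49 and -0.39, and none passed (limma adjusted p = 0.0853, 0.107 and 0.166). The first of these is brighter than the set used, but carries the suffix x. Among genes of LSD1 ubiquitination, JADE2, which encodes an LSD1 ubiquitin ligase, fell by 0.53 on the log2 scale (3305 ± 269 in controls, 2285 ± 216 with LSD1 siRNA; SD, n = 3). The mean of its probe sets, among them 232279_at below the filter, was -0.16 (limma adjusted p = 0.544, range 1.86e-04 to 0.544). USP28, which removes ubiquitin from LSD1, was at -0.41 (limma adjusted p = 0.0704) and USP7 at -0.19, and neither passed.

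LSD1 belongs to the flavin-dependent amine oxidases, and 2 of the 3 tested relatives rose, beside 19.8% of all genes. MAOA, a mitochondrial monoamine oxidase, rose by 0.92 on the log2 scale (SE 0.08, limma adjusted p = 3.97e-06), with signals of 554 ± 20.4 in controls and 1066 ± 64.4 with LSD1 siRNA (SD, n = 3). SMOX, the spermine oxidase gene, rose by 0.36, but was not called without LSD1 siRNA array 2 (0.25, limma adjusted p = 0.0802), with no intensity trend or without moderation (0.124, range 0.00300 to 0.124). A dimmer SMOX set (1555680_a_at) rose by 0.77, from 113 to 200 (limma adjusted p = 0.00752 over all probe sets). The dimmest (217074_at) was at 0.03 and did not pass. PAOX, another polyamine oxidase gene, stood at -0.39 and missed the threshold (limma adjusted p = 0.0832), and MAOB was below the filter. Of the genes that supply FAD, RFK rose by 0.32 with its brightest set, while a second set (203225_s_at) of nearly equal brightness was at 0.07 and did not pass. FLAD1 stood at -0.16 and missed the threshold.

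The H3K4 demethylase genes of the other enzyme class, KDM5A, KDM5B and KDM5C, stood at -0.16, 0.07 and 0.09. None of the 3 passed with limma (adjusted p = 0.204, 0.479 and 0.567), beside 41.1% of all genes called. Arrays of the groups were separate for KDM5A, downwards, and for KDM5B, upwards, beside 50.4% of all genes. Of the genes whose proteins LSD1 is known to demethylate or regulate, DNMT1, the maintenance DNA methyltransferase gene, fell by 1.08 on the log2 scale (9809 ± 539 in controls, 4639 ± 72.3 with LSD1 siRNA; SD, n = 3). E2F1, a cell cycle transcription factor gene, fell by 1.39 (572 ± 54.0 against 208 ± 5.03).

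**Figure D4:**
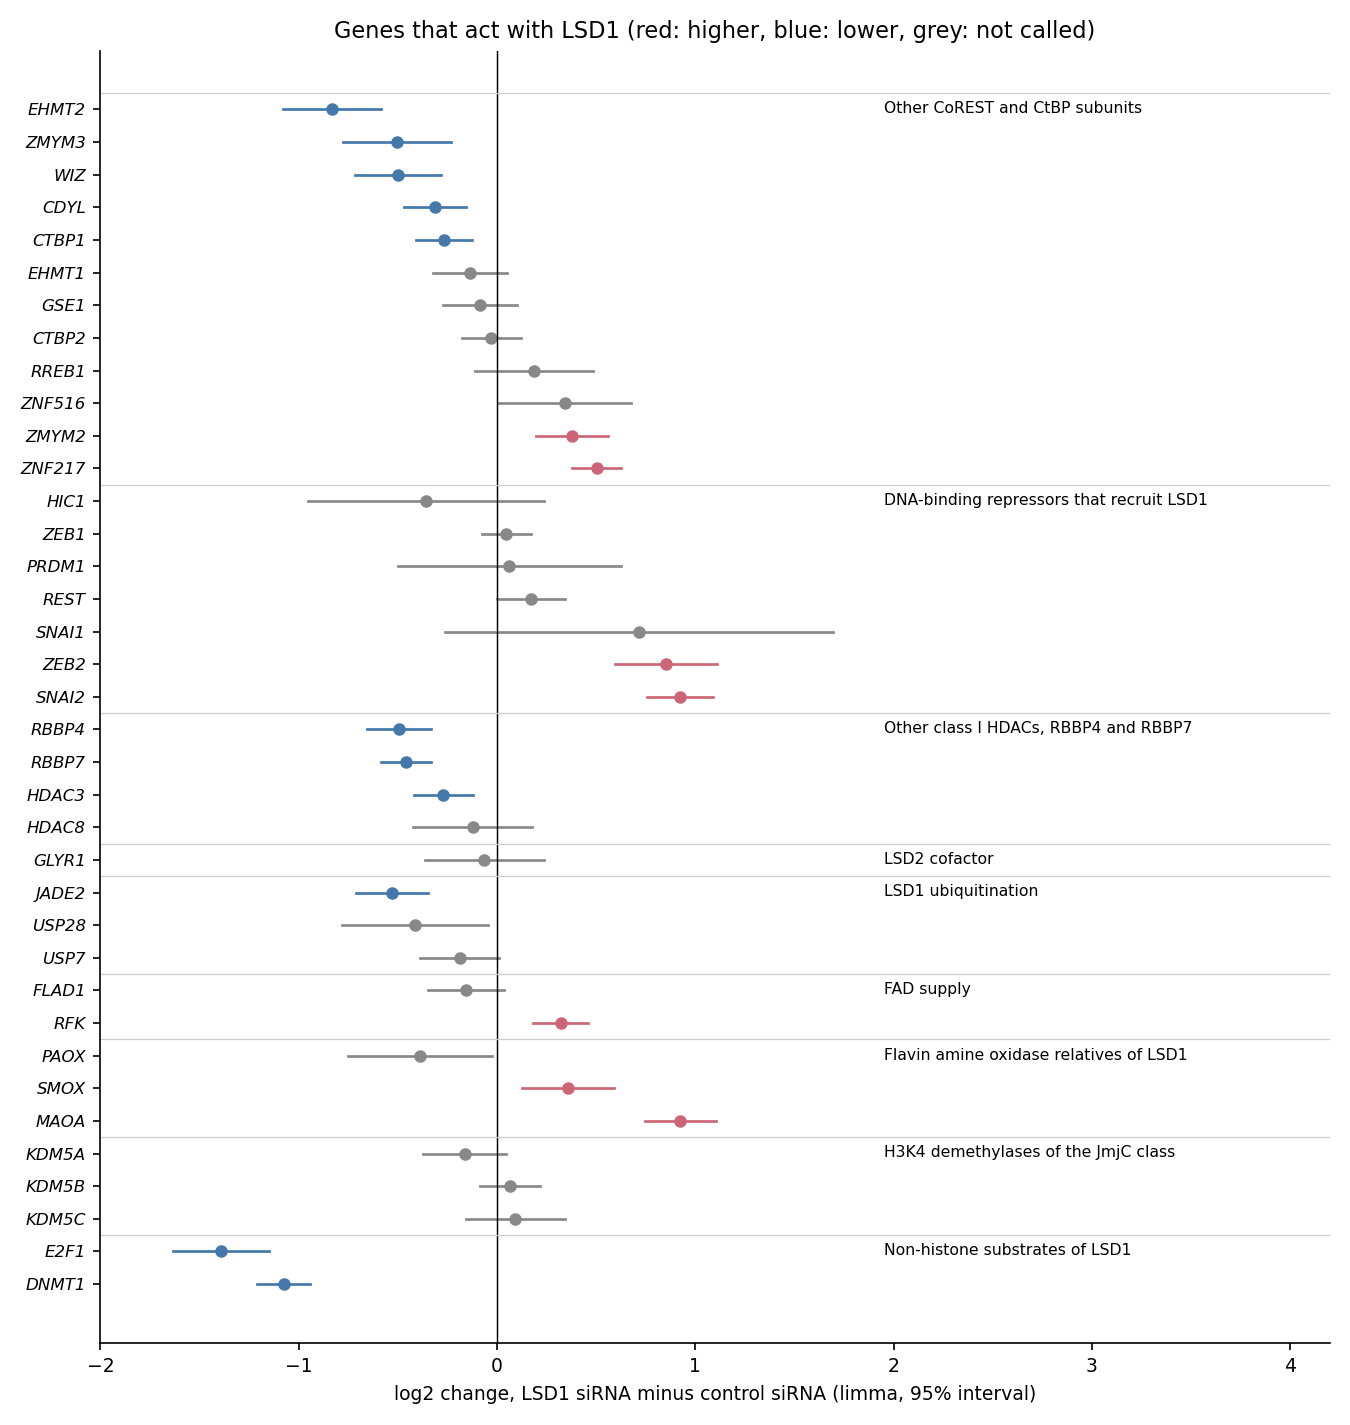
The log2 change (LSD1 siRNA minus control siRNA, limma, 95% interval) of 37 tested genes that act with LSD1, grouped by list. Red genes rose, blue genes fell and grey genes did not pass. SNAI2 and MAOA lie near 0.92, and E2F1 is at -1.39.

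The genes whose pattern over the 6 arrays was most like that of KDM1A were found by Pearson's r of log2 values, as a description with no test, since the arrays form 2 groups that all points share. HNRNPUL2, FAM111A, POLA1, RBM14 and CCDC88C had the highest r, from 0.9986 to 0.9991, with log2 changes from -1.15 for POLA1 to -0.61 for FAM111A. RND3, HMGA2, PPP3CC, ARL1 and CHMP5 had the lowest r, from -0.9997 to -0.9992, with changes from 0.41 for ARL1 to 0.80 for PPP3CC. Values above 0.95 were reached by 9.53% of genes tested and values below -0.95 by 8.99%.

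**Figure D5:**
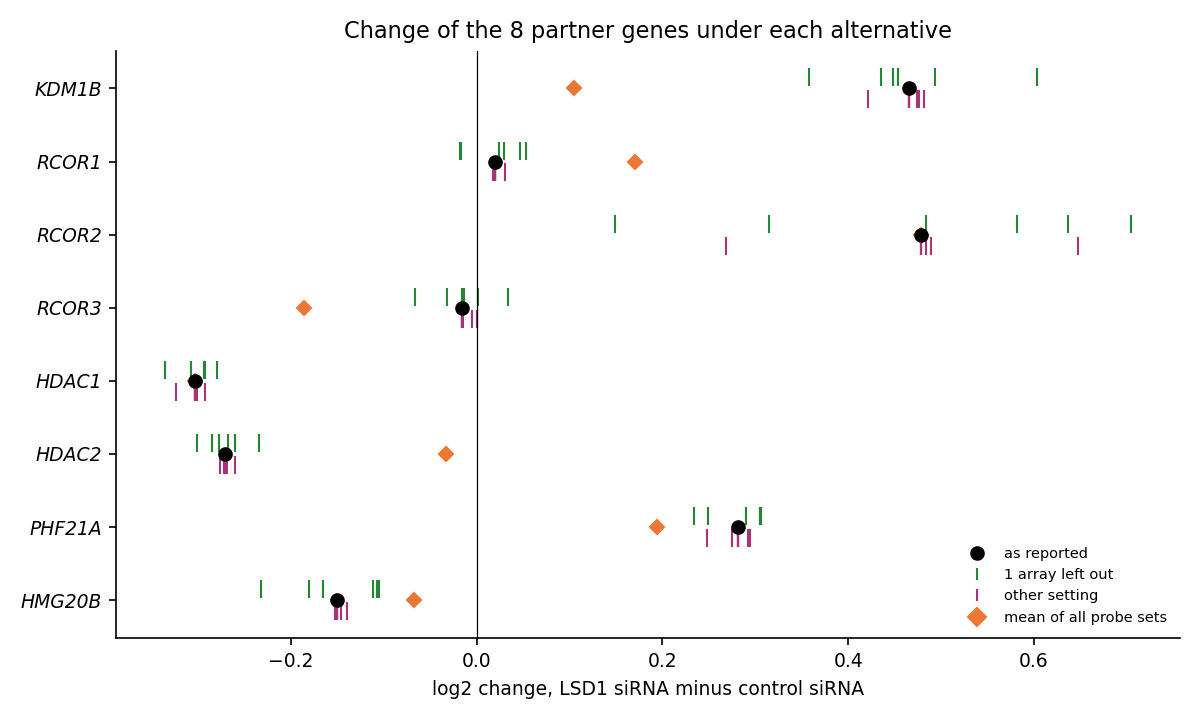
The log2 change (LSD1 siRNA minus control siRNA) of the 8 members other than KDM1A, among them the paralog KDM1B. Values are shown as reported (black), with 1 array left out (green), under other settings (purple) and with the mean of all probe sets (orange). With the mean of all probe sets HDAC2 moves to -0.03 and KDM1B to 0.10, while HDAC1 and RCOR2, with 1 probe set each, cannot move under that setting. Under the others HDAC1 lies between -0.34 and -0.28.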

How the data were processed

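The submitters' processing notes name MAS5, GCOS and, at version 1.1, Affymetrix Expression Console. The order of steps is not given in the sources used here. The deposited values are linear signal intensity, scaled by the authors to a trimmed mean of 500.1 on each array (2% trimmed from each end), with no detection calls. Scaling every array to 1 mean removes differences in RNA content between cells, and dim signals are noisy. Probe sets were named from the platform annotation and checked against RefSeq names. Of all probe sets 41091 had 1 symbol, 1801 had several and 11777 were not listed, and the 62 control probe sets were left out.

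Values were taken as log2(signal + 15), 15 being the 25th percentile of all signals, so changes of dim genes are understated. A gene was represented by its brightest probe set (suffix x only where no other exists), and sets with a mean above the 40th percentile were kept. Groups were compared two-sided with lmFit and eBayes with an intensity trend in limma 3.58.1 (R 4.3.3), with Benjamini-Hochberg adjustment over all genes, and separately over all probe sets. The fit was tested on simulated data. The adjusted p-values named without a tool are limma's. The members, lists and tests were chosen with earlier results of these data known. Named genes are all members, up to 3 of each list with the smallest p past the threshold, those against the majority, and the 5 most and 5 least correlated with KDM1A; CDYL, CTBP1, ZMYM3, HDAC8, REST, GLYR1, FLAD1, PAOX, USP7, USP28 and the KDM5 genes were named after their values were seen. Alternatives covered the constant (1 and 60), the filter, normalization, the variance model, averaging a gene's probe sets, leaving out each array and a block for replicate number. The average took every probe set of a gene with equal weight, also those below the filter. Some genes of the lists are not reported here. Figures were drawn with matplotlib 3.10.9.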

Additional observations from a re-analysis of the deposited data

How the results depend on the processing

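The count of called members was 4 of 9 as reported. It was 2, KDM1A and HDAC1, with the mean of all probe sets. Under that setting 33.4% of all genes were called, beside 41.1% as reported. KDM1A, HDAC1 and RCOR2 have 1 probe set each, so averaging could not move their values. The count was 4 or 5 under the other 15 alternatives. Under these, between 26.5% (no filter) and 53.8% (filter at the 60th percentile) of all genes were called. The called members were not always the same. Without moderation PHF21A was called (limma adjusted p = 0.0333) and KDM1B was not (0.0898). The count of 5 took in PHF21A with no intensity trend and HMG20B without control array 3. KDM1A stayed between -3.48 and -3.10 on the log2 scale and kept its call in the other 15 alternatives. Called probe sets of the members numbered 4 to 7 over 15 alternatives, beside 6 as reported. Shares of all probe sets called under these alternatives are not given here. The lists had 14 to 19 called genes, beside 18, and the shares of all genes given above apply to them too. RCOR2 was below the filter at the 60th percentile. The signs of RCOR1 and RCOR3, which were not called, changed with the setting, with values from -0.02 to 0.17 and from -0.19 to 0.03. Quantile normalization and median centring moved the median change of all genes by 0.00461 and 0.0106 and changed no call among the 9 genes. The paralog ratios moved with the mean of all probe sets, to -3.43 for KDM1A to KDM1B, 0.36 for RCOR1 to RCOR3 and -0.27 for HDAC1 to HDAC2. For RCOR1 that mean takes in 237041_x_at, which was below the filter and stood at 33.8 on LSD1 siRNA array 1. With it RCOR1 was at 0.17, beside 0.02 with its brightest set. Replicate numbers did not pair the arrays: deviations of same-numbered arrays correlated at 0.0178, -0.00398 and 0.0266 over genes. With the replicate number as a block 4 members were called, and 5697 of all genes beside 5686. Dim signal limits RCOR2 and the dimmer sets of the other genes.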

Other observations

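Some list genes had further probe sets that add to the account above, named after their values were seen. MAOA rose with all 3 of its probe sets. Its dimmer sets rose from 119 ± 50.2 to 439 ± 17.8 (204388_s_at) and from 116 ± 24.9 to 275 ± 23.6 (204389_at; SD, n = 3), log2 changes of 1.84 and 1.16 (limma adjusted p = 7.55e-05 and 2.15e-04 over all probe sets). PRDM1, which encodes the repressor Blimp-1, had a value of 0.06 with its brightest set. Its 2 other sets rose by 1.27 (235668_at) and 1.28 (228964_at), from signals of 46.6 ± 29.8 and 44.3 ± 23.8 to 121 ± 14.1 and 121 ± 7.02 (SD, n = 3; limma adjusted p = 0.0133 and 0.00420). RBBP4 has 6 tested sets, and all 6 had negative values, from -0.50 to -0.33, of which 4 passed. USP28 was not called with the set used for the gene, but another set (1552678_a_at) fell by 0.57 on the log2 scale (limma adjusted p = 0.0139).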
